A study of Mus musculus with 15 samples.

Results

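The genes described here encode the enzymes that build and desaturate fatty acids, measured in the cecum of mice whose gut microbes had been depleted with antibiotics. The members were taken by name as the rows of the deposited table for Acly, Acaca, Acacb, Fasn, Elovl5, Elovl6, Scd1, Scd2, Fads1 and Fads2, so that they were 10 of 45808 rows. All 10 were among the 11971 genes with enough signal to be tested. AIMD stands for antibiotic-induced microbiome depletion: 7 C57BL/6 mice received ampicillin, vancomycin, metronidazole and neomycin together with the antifungal amphotericin B by oral gavage for 30 days, and 8 C57BL/6 mice received water (vehicle). The mice of both groups were wild type and 20 weeks old by the labels, and the ceca were emptied of their content and frozen whole. Each library therefore holds the cecal wall of 1 mouse with all its cell types, and lipids, enzyme activity and the microbes themselves are not in these data.

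Fatty acid synthesis starts in the cytosol, where ATP citrate lyase turns citrate into acetyl-CoA, acetyl-CoA carboxylase adds a carboxyl group to give malonyl-CoA, and fatty acid synthase joins these units into palmitate with reducing power from NADPH. Elongases of the ELOVL family then lengthen the chain in the endoplasmic reticulum, stearoyl-CoA desaturases place the first double bond, and the FADS desaturases add further double bonds to the essential dietary fatty acids. SREBP-1c, the liver X receptor and ChREBP are transcription factors known to drive many of these genes, and the epithelium of the large bowel is supplied with acetyl-CoA in part by the short-chain fatty acids that microbes make.

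The values are FPKM (the reads of a gene divided by its exon length and by the library's depth), which allows levels of different genes to be set side by side. The reads on genes ran from 8829379 to 18474245 in the AIMD mice and from 4454371 to 14072271 in the vehicle-treated mice, so the AIMD libraries were deeper and the vehicle values of low genes less precise. Transcripts of the labelled tissue were abundant: the summed FPKM of 8 epithelial genes lay between 4351 and 6839 in AIMD mice and between 3714 and 5596 in vehicle-treated mice. Of 4 liver genes Alb did not exceed 0.258 FPKM in any mouse, while Apoa2 reached 8.78 FPKM and Ttr 37.6 FPKM. Mice were compared on log2(FPKM + 0.5) in limma. The p-values were adjusted by the Benjamini-Hochberg method over all 11971 genes, and genes passed at an adjusted p under 0.05. On this scale the change of scarce transcripts is understated.

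In vehicle-treated mice the transcripts of the pathway were led by the stearoyl-CoA desaturases, Scd1 with a mean of 76.2 FPKM and Scd2 with 56.1 FPKM, whose ranges overlapped although Scd1 was the higher in 7 of 8 mice. Acly (13.9), Elovl6 (13.0), Fads1 (10.4) and Elovl5 (8.26) formed a middle group of mean FPKM, and adjacent genes in this order overlapped in their ranges over the 8 mice. Fasn (4.04 FPKM) and Fads2 (1.84 FPKM) were lower, and the carboxylase genes Acacb (0.787 FPKM) and Acaca (0.546 FPKM) were the lowest, with overlapping ranges. In AIMD mice the order changed at the top, where Scd2 (76.6 FPKM) stood above Scd1 (19.6 FPKM) in 7 of 7 mice, and Scd1 overlapped with Acly (16.3 FPKM). It also changed lower down, where Fads2 (3.92 FPKM) was above Fasn (3.05 FPKM) in 5 of 7 AIMD mice, while Fasn was above Fads2 in 8 of 8 vehicle-treated mice. In the middle group Elovl5 was above Fads1 in 6 of 7 AIMD mice, while Fads1 was above Elovl5 in 7 of 8 vehicle-treated mice.

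**Figure D1:**
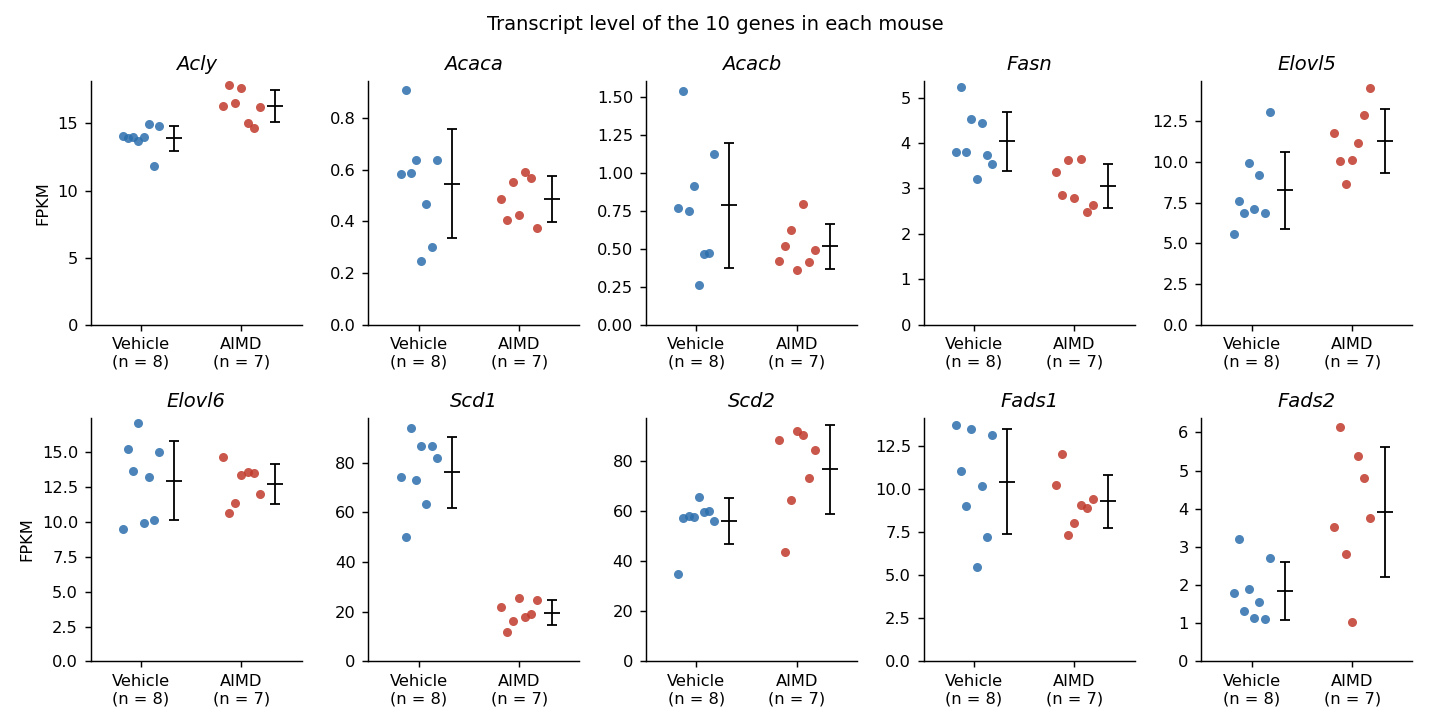
FPKM of each of the 10 genes (y axis, from 0, a scale of its own in each panel) in the 8 vehicle-treated and 7 AIMD mice, 1 point a mouse, with the mean and SD of the group beside the points. Scd1 is the gene whose groups do not overlap, with 11.7 to 25.6 FPKM in AIMD mice and 49.98 to 94.0 FPKM in vehicle-treated mice.

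Of the 10 genes, 2 were significantly lower in AIMD mice (Scd1 and Fasn), 2 were significantly higher (Elovl5 and Fads2) and 6 did not pass the threshold. Across all genes tested 36.0% passed, 19.4% as higher and 16.6% as lower, so that 4 of 10 was near the share of the transcriptome as a whole. The median log2 fold change of the 10 genes was -0.03, against 0.0066 over all genes tested, and the median of its absolute size was 0.32 in both. The groups did not overlap for 1 of the 10 genes, Scd1, and for 8.56% of all genes tested. Of the 11971 genes tested 74, Scd1 included, had an absolute log2 fold change at least as large as that of Scd1. In whole ceca, fewer cells of a type and less RNA in each cell cannot be told apart.

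**Figure D2:**
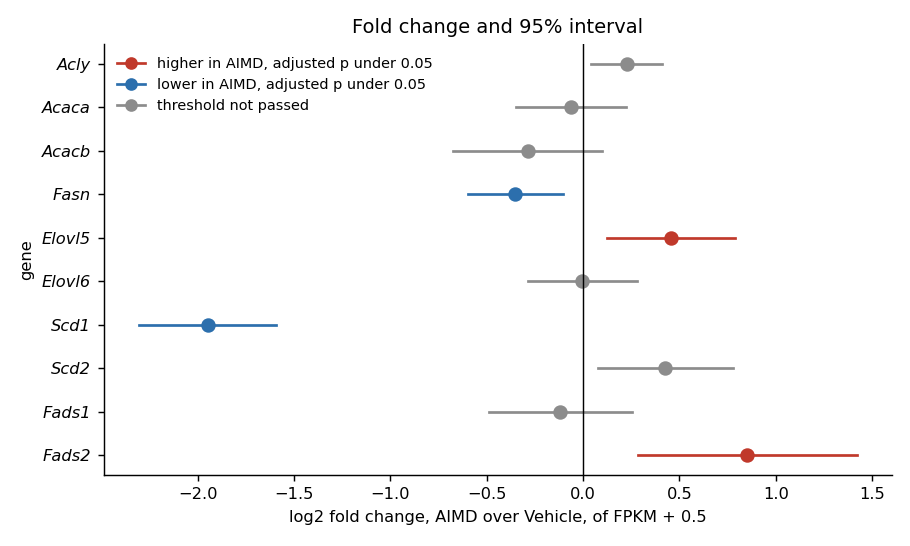
Log2 fold change of each gene, AIMD over vehicle (x axis, of FPKM + 0.5), with its 95% interval from limma as a line. Scd1 lies at -1.95 with an interval from -2.30 to -1.59, and the other 9 genes lie between -0.35 and 0.85.

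The enzyme at the entrance of the pathway did not pass the threshold. Acly, which supplies cytosolic acetyl-CoA and lies on the minus strand of chromosome 11 (chr11:100476353-100528000, GRCm38), had 14.6, 16.3 and 17.9 FPKM as lowest, median and highest AIMD value and 11.8, 14.01 and 14.9 FPKM in vehicle-treated mice. In 6 of 7 AIMD mice Acly was above every vehicle-treated mouse. The mean level was 16.3 ± 1.20 FPKM (SD, n = 7) against 13.9 ± 0.956 FPKM (SD, n = 8), and the log2 fold change of 0.23 (standard error, SE, 0.088) had a limma adjusted p of 0.0530. Without vehicle replicate 8 it was 0.24 with an adjusted p of 0.0393, and with the exact rank-sum test in place of limma the adjusted p was 0.00809. Acly also passed with no filter on low genes (adjusted p = 0.0303), with a covariate for the clock-gene score (0.0376) and with the clock-gene cluster as a factor (0.0363), with log2 fold changes of 0.23 in each.

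Acaca and Acacb encode the acetyl-CoA carboxylases, the cytosolic form that feeds synthesis and the form at the mitochondrion whose malonyl-CoA restrains fatty acid import. Both were scarce. Acaca (plus strand, chr11:84129672-84401651) had a mean of 0.486 ± 0.0872 FPKM (SD, n = 7) in AIMD mice, from 61 to 181 reads a mouse, and of 0.546 ± 0.209 FPKM (SD, n = 8) with vehicle, from 22 to 212 reads. All 7 AIMD values, 0.372 to 0.592 FPKM, fell inside the vehicle range of 0.247 to 0.909 FPKM. The log2 fold change was -0.06 with a 95% interval from -0.35 to 0.22 (limma adjusted p = 0.739). For Acaca, 30.4% of the 50-base windows of its transcripts also occur in other genes, chiefly the processed pseudogene Gm5182, so its level is uncertain.

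Acacb (plus strand, chr5:114146535-114250761) ran from 0.358 to 0.796 FPKM with a median of 0.491 in AIMD mice, and from 0.259 to 1.54 FPKM with a median of 0.759 FPKM with vehicle. The vehicle range enclosed the AIMD range here too. The log2 fold change of -0.29 had a 95% interval from -0.67 to 0.097 (limma adjusted p = 0.230). The log2 ratio of Acaca to Acacb within a mouse was -0.04 ± 0.18 (SD, n = 7) under AIMD against -0.26 ± 0.20 (SD, n = 8) with vehicle. This difference of 0.22 (95% interval 0.0080 to 0.44) passed the threshold narrowly (two-sided exact permutation test over 6435 splits of the mice, p = 0.0427, adjusted over 5 pairs of related genes p = 0.0427). It lost it without any of 10 single mice, AIMD replicates 1, 3, 4 and 6 or vehicle replicates 1, 2, 3, 4, 7 and 8, with differences from 0.18 to 0.23 and adjusted p from 0.0501 to 0.0919.

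Fasn encodes fatty acid synthase, the single large protein that makes palmitate, and was lower in AIMD mice. The lowest, median and highest AIMD values were 2.48, 2.87 and 3.65 FPKM, and those of the vehicle-treated mice were 3.21, 3.81 and 5.23 FPKM. In 4 of 7 AIMD mice Fasn was below every vehicle-treated mouse, and 6 of 8 vehicle-treated mice were above every AIMD mouse, so the groups overlapped in the 3.21 to 3.65 FPKM range. The AIMD mean was 0.756 times the vehicle mean, a log2 fold change of -0.35 (SE 0.12, limma adjusted p = 0.0264). The call rested on a few mice: the adjusted p was 0.0640 without AIMD replicate 6 (log2 fold change -0.31) and 0.0546 without AIMD replicate 7 (-0.32). It was 0.0593 with the smooth muscle markers and 0.0986 with the enteric glia and Schwann cell markers as a covariate, alternatives chosen after seeing the data, under which the fold change stayed at -0.35 and -0.37.

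Fasn lies on the minus strand of chromosome 11 (chr11:120805846-120824547). The 250 bases before its RefSeq start are shown because they hold several CCAAT boxes, the site of the factor NF-Y that is known to act with SREBP on lipogenic promoters. They stand on the minus strand at chr11:120824548-120824797 (GRCm38.p6), and the capitals mark CCAAT read on either strand.

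Fasn: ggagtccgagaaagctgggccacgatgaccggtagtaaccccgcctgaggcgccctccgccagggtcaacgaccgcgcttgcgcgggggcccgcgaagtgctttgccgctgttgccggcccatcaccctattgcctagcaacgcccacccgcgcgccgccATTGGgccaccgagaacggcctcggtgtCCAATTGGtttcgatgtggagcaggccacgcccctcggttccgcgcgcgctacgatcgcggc

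The 3 matches begin 90, 62 and 59 bases before the start, and the last 2 overlap. Of 32851 windows of 250 bases before a RefSeq start, 33.8% hold a CCAAT on either strand. No match to the sterol element core TCACNCCAC (in 1.05% of the windows), to the E-box CACGTG (6.02%) or to the GC box GGGCGG (32.7%) stood in these letters. RefSeq windows were matched for 7 of the 10 genes, and not for Scd1, Scd2 or Fads1. The sterol element core stood in none of the 7, while CCAAT also stood in those of Elovl5 and Acacb, CACGTG in that of Elovl5, and GGGCGG in those of Acly and Fads2. All 250 bases of the Acaca and Acacb windows, and 243 of those of Fads2, lie inside the GENCODE gene. These windows thus hold few or none of the bases before the GENCODE gene start.

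Palmitate and longer chains pass to the elongases. Elovl5, which lengthens polyunsaturated fatty acids, was higher in AIMD mice. Its values were 8.66, 11.2 and 14.5 FPKM (lowest, median and highest) in AIMD mice and 5.58, 7.32 and 13.0 FPKM in vehicle-treated mice. Of the 8 vehicle-treated mice 5 were below every AIMD mouse, and vehicle replicate 8, the highest of its group and the least deep library, overlapped with the upper AIMD mice. The means of 11.3 ± 1.96 FPKM (SD, n = 7) and 8.26 ± 2.37 FPKM (SD, n = 8) gave a log2 fold change of 0.45 (SE 0.16, limma adjusted p = 0.0327). Leaving out any 1 of 8 mice, AIMD replicates 1, 5, 6 and 7 or vehicle replicates 1, 3, 5 and 7, took the adjusted p to between 0.0525 and 0.0708 with fold changes from 0.39 to 0.45. The call was also lost after quantile normalization (adjusted p = 0.0600), with no filter on low genes (adjusted p = 0.0563) and with the exact rank-sum test (adjusted p = 0.0574). With the enteric glia and Schwann cell markers as a covariate, an alternative chosen after seeing the data, the log2 fold change was 0.87 (adjusted p = 0.00165).

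Elovl5 lies on the plus strand of chromosome 9 (chr9:77917364-77984519). The bases before its start, chr9:77917115-77917363, are shown because they hold both an E-box (CACGTG, which the USF and ChREBP factors can bind) and a pair of CCAAT boxes read on the other strand, all in capitals.

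Elovl5: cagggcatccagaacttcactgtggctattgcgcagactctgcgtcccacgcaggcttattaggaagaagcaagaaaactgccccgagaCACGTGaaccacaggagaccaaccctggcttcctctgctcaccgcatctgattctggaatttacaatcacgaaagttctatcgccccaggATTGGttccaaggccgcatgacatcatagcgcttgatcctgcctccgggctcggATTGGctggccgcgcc

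The E-box begins 161 bases before the RefSeq start and the CCAAT boxes begin 71 and 17 bases before it. These matches are letters in a window, and binding was not measured.

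Elovl6 (plus strand, chr3:129532355-129638495), the elongase that turns palmitate into stearate, had nearly equal means, 12.7 ± 1.41 FPKM (SD, n = 7) under AIMD against 13.0 ± 2.84 FPKM (SD, n = 8) with vehicle. The AIMD range of 10.7 to 14.6 FPKM lay inside the vehicle range of 9.49 to 17.1 FPKM. Its log2 fold change was -0.0039 with a 95% interval from -0.29 to 0.28 (limma adjusted p = 0.985). Elovl6 shares 34 exon bases with the antisense gene Gm35986 and 3.98% of its 50-base windows with other genes, so a small part of its reads may belong elsewhere. The elongases differed in their response: the log2 ratio of Elovl5 to Elovl6 was -0.18 ± 0.23 (SD, n = 7) under AIMD against -0.63 ± 0.26 (SD, n = 8) with vehicle, a difference of 0.46 (95% interval 0.18 to 0.74, exact permutation test, adjusted p = 0.00447). Unlike the fold change of Elovl5 alone, this difference passed the threshold with each mouse left out in turn.

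Scd1 had the largest change of the 10 genes. It encodes stearoyl-CoA desaturase 1, which turns stearate and palmitate into oleate and palmitoleate, and lies on the minus strand of chromosome 19 (chr19:44394455-44407879). In AIMD mice replicates 1 to 7 had 21.9, 11.7, 16.1, 25.6, 18.1, 19.1 and 24.9 FPKM. In vehicle-treated mice replicates 1 to 8 had 74.05, 49.98, 94.0, 72.9, 86.7, 63.4, 86.7 and 81.7 FPKM. The highest AIMD mouse, replicate 4, was well below the lowest vehicle-treated mouse, replicate 2, and the groups were apart. From 686 to 1870 reads stood behind each AIMD value and from 1747 to 3965 behind each vehicle value. The vehicle mean of 76.2 ± 14.3 FPKM (SD, n = 8) was 3.88 times the AIMD mean of 19.6 ± 4.95 FPKM (SD, n = 7), a log2 fold change of -1.95 (SE 0.17, limma adjusted p = 6.36e-07). Scd1 passed the threshold under all 17 other settings and with each of the 15 mice left out, with log2 fold changes from -2.11 to -1.77.

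Scd2, a second stearoyl-CoA desaturase gene, lies 87590 bases away on the plus strand (chr19:44293674-44306864). In AIMD mice replicates 1 to 7 had 88.5, 43.7, 64.5, 91.7, 90.5, 73.0 and 84.4 FPKM. The vehicle-treated mice were close together, with 57.2, 58.2, 57.6, 65.6, 59.8, 59.9 and 56.0 FPKM in replicates 2 to 8, except for replicate 1 at 34.8 FPKM. Thus 5 of 7 AIMD mice were above every vehicle-treated mouse, and AIMD replicate 2 was below 7 of the 8. The log2 fold change of 0.43 (SE 0.17) did not pass the threshold (limma adjusted p = 0.0542). This call turned on single mice and on the model: the fold change was 0.55 (adjusted p = 0.00775) without AIMD replicate 2 and 0.46 (adjusted p = 0.0482) without vehicle replicate 5. The adjusted p was 0.0353 with a clock-gene score as a covariate, and 0.281 with the adipocyte markers as a covariate (log2 fold change 0.28, chosen after seeing the data).

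The stearoyl-CoA desaturase genes differed in their response by more than any other pair compared. The log2 ratio of Scd1 to Scd2 was -1.94 ± 0.18 (SD, n = 7) under AIMD against 0.43 ± 0.38 (SD, n = 8) with vehicle, a difference of -2.37 (95% interval -2.71 to -2.04). All AIMD mice, from -2.29 to -1.74, were below all vehicle-treated mice, from -0.19 to 1.08 (exact permutation test, p = 0.000155, the smallest the 6435 splits can give, adjusted p = 0.000777). As a share of the FPKM of both genes, Scd1 held 20.4% ± 1.96 (SD, n = 7) under AIMD against 57.4% ± 6.46 (SD, n = 8) with vehicle. The share thus varied from 16.6% to 22.8% among AIMD mice although the sum ran from 55.4 to 117 FPKM, since AIMD replicate 2 was the lowest of its group in both genes. The sum of both genes averaged 96.2 ± 22.0 FPKM in AIMD mice and 132 ± 18.1 FPKM in vehicle-treated mice, and these ranges overlapped. Scd1 shared 4.56% and Scd2 3.97% of their 50-base windows with transcripts of other genes, chiefly of their own family, while Scd3 and Scd4 were not above 0.236 FPKM in any mouse.

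**Figure D3:**
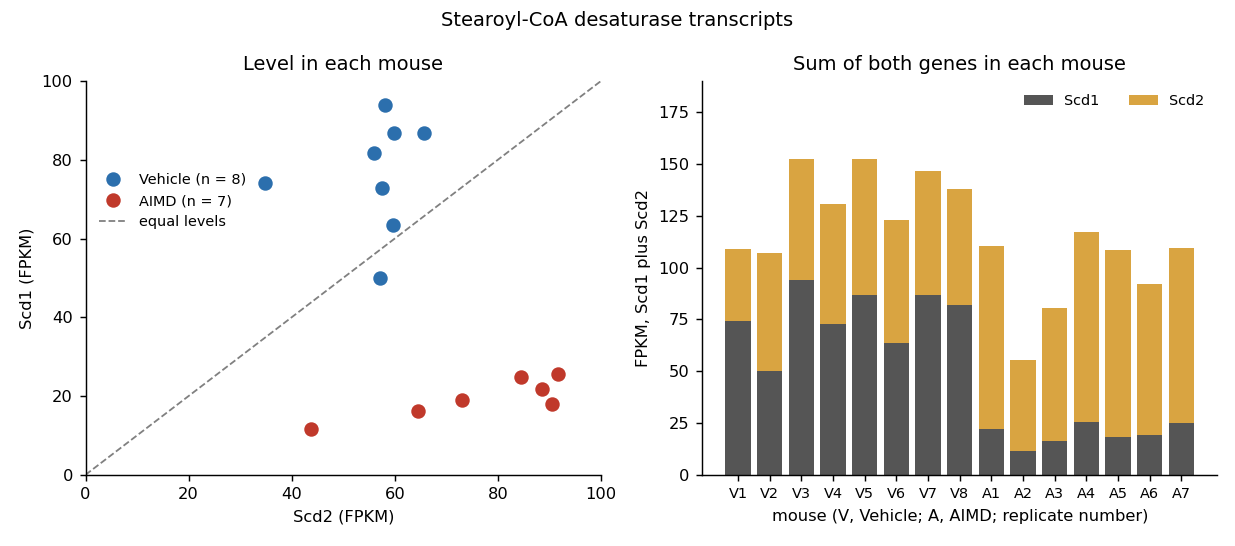
Left, Scd1 (y axis, FPKM) against Scd2 (x axis, FPKM) in each mouse, with a dashed line where both are equal. Right, the FPKM of Scd1 and Scd2 stacked for each mouse. All 7 AIMD mice lie below the line of equal levels, and 7 of 8 vehicle-treated mice lie above it.

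Scd1 and Fasn, often named together as lipogenic genes, were both lower in AIMD mice but not by the same amount. The log2 ratio of Fasn to Scd1 was -2.47 ± 0.47 (SD, n = 7) under AIMD against -4.07 ± 0.48 (SD, n = 8) with vehicle, a difference of 1.59 (95% interval 1.06 to 2.12, exact permutation test, adjusted p = 0.000777). The ranges of the groups did not overlap.

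Fads1 and Fads2 encode the delta-5 and delta-6 desaturases, which act in turn on the way to long polyunsaturated fatty acids, and lie 81141 bases apart on chromosome 19, Fads2 on the minus strand (chr19:10062765-10101746) and Fads1 on the plus strand (chr19:10182888-10196877). Fads2, the earlier step, was higher in AIMD mice. Its values in AIMD replicates 1 to 7 were 3.53, 6.13, 2.80, 1.02, 5.38, 4.80 and 3.76 FPKM, and those in vehicle-treated replicates 1 to 8 were 1.79, 3.20, 1.33, 1.89, 1.14, 1.55, 1.10 and 2.70 FPKM. In 5 of 7 AIMD mice Fads2 was above every vehicle-treated mouse, while AIMD replicate 4 was below all of them. The AIMD mean of 3.92 ± 1.71 FPKM (SD, n = 7) was 2.13 times the vehicle mean of 1.84 ± 0.754 FPKM (SD, n = 8), a log2 fold change of 0.85 (SE 0.27, limma adjusted p = 0.0208). Reads were few, from 13 to 112 in an AIMD mouse and from 9 to 66 in a vehicle-treated mouse. The adjusted p was 0.0739 with the exact rank-sum test and 0.101 with the epithelial markers as a covariate (log2 fold change 0.70, chosen after seeing the data). With the smooth muscle markers as a covariate the log2 fold change was 1.34 (adjusted p = 0.000389).

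Fads1 ran from 7.30 to 12.01 FPKM in AIMD mice with a median of 9.05, and from 5.49 to 13.7 FPKM in vehicle-treated mice with a median of 10.6. The AIMD range lay within the vehicle range, and the log2 fold change of -0.12 had a 95% interval from -0.49 to 0.26 (limma adjusted p = 0.634). The log2 ratio of Fads1 to Fads2 was 1.26 ± 0.60 (SD, n = 7) under AIMD against 2.23 ± 0.34 (SD, n = 8) with vehicle, a difference of -0.97 (95% interval -1.46 to -0.43, exact permutation test, adjusted p = 0.00447). Fads3, a member of the same family whose gene lies 2654 bases from Fads2, moved against Fads2. It had 1.59 ± 0.424 FPKM (SD, n = 7) under AIMD against 4.51 ± 1.596 FPKM (SD, n = 8) with vehicle, with no overlap, a log2 fold change of -1.22 (limma adjusted p = 0.000203).

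Around the 10 genes, 63 other genes of the pathway were listed in 6 groups, of which 50 were tested, and 11 of these rose and 6 fell significantly under AIMD. This was 34.0% of those tested, near the 36.0% of all genes. The 13 untested genes did not exceed 1.12 FPKM in any mouse where a value was found. For Olah, Scd5 and Hsd17b8 no value above 0 was found under these symbols. This may mean that no row has that name, and it is not read as absent expression. Scd3, Scd4, Elovl2 and Fads6 were among the untested genes, so the desaturation and elongation described here rest on few members of each family.

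Among 3 tested partner enzymes of synthesis 1 passed. Acss2, the cytosolic enzyme that activates acetate to acetyl-CoA, was lower, with 4.05 ± 0.591 FPKM (SD, n = 7) under AIMD against 6.12 ± 1.01 FPKM (SD, n = 8) with vehicle (log2 fold change -0.54, limma adjusted p = 0.00274). Slc25a1, the carrier that exports citrate from the mitochondrion, had a log2 fold change of 0.15 (limma adjusted p = 0.560). Of 4 genes of cytosolic NADPH supply 1 passed, the malic enzyme gene Me1. In AIMD mice Me1 had 2.68 ± 0.270 FPKM (SD, n = 7), below every vehicle-treated mouse, whose mean was 8.20 ± 4.04 FPKM (SD, n = 8), a log2 fold change of -1.34 (limma adjusted p = 0.000175).

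Elongation has further steps after the ELOVL enzymes, and 3 of 7 other tested elongation genes passed, all as higher. This was 42.9% of the list, near the 36.0% of all genes tested, of which 19.4% passed as higher. Hsd17b12, the 3-ketoacyl-CoA reductase of the cycle, had 61.5 ± 6.90 FPKM (SD, n = 7) under AIMD against 31.0 ± 6.22 FPKM (SD, n = 8) with vehicle without overlap (log2 fold change 1.00, limma adjusted p = 3.81e-05). Elovl1, an elongase of very long saturated chains, had a log2 fold change of 1.02 (limma adjusted p = 0.00265), and the dehydratase gene Hacd2 one of 0.64 (limma adjusted p = 0.0149). The median log2 fold change over the 7 genes was 0.22, and the medians of the other lists ran from -0.38 (partner enzymes of synthesis) to 0.095 (regulators). Of 6 other tested genes of desaturation and electron supply, 2 were lower and 1 was higher. Beside Fads3, these were Degs1, the desaturase of ceramide synthesis (log2 fold change -0.98, limma adjusted p = 6.15e-05), and Cyb5b, a cytochrome b5 of the outer mitochondrial membrane (log2 fold change 0.56, limma adjusted p = 0.00107). None of the 6 tested genes of mitochondrial fatty acid synthesis, a separate pathway, passed in limma, 1 had an unadjusted p under 0.05, and 0 passed with limma voom on recovered reads or with the exact rank-sum test. With a covariate for the clock-gene score, with a replicate block, and without vehicle replicate 5 or 8, 1 of the 6 passed.

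Regulators formed the longest list, with 7 of 24 tested genes higher and 2 lower. Srebf1, which encodes SREBP-1, had 2.39 ± 0.527 FPKM (SD, n = 7) under AIMD against 2.59 ± 0.547 FPKM (SD, n = 8) with vehicle (log2 fold change -0.10, limma adjusted p = 0.618). Nr1h3, the gene of liver X receptor alpha, was at 0.01 (limma adjusted p = 0.960) and Mlxipl, the gene of ChREBP, at -0.20 (limma adjusted p = 0.177) on the log2 fold change scale. By contrast Srebf2, whose product SREBP-2 is best known for cholesterol synthesis, was higher by 0.63 (limma adjusted p = 0.00994), and Insig1, which holds the SREBP escort protein in the endoplasmic reticulum and is itself a known SREBP target, was higher by 1.28 (limma adjusted p = 3.85e-05). Insig1 had 39.7 ± 5.54 FPKM (SD, n = 7) under AIMD against 16.5 ± 4.64 FPKM (SD, n = 8) with vehicle, and the groups did not overlap. Scap, the gene of the escort protein itself, was lower, with a log2 fold change of -0.32 (limma adjusted p = 0.0419).

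Usf1, an E-box factor, had a log2 fold change of -1.20 (limma adjusted p = 4.57e-05), Rxra, the shared partner of the liver X and other nuclear receptors, one of 0.80 (limma adjusted p = 0.00202), and Mlx, the partner of ChREBP, one of 0.77 (limma adjusted p = 9.34e-05). The lipogenic proteins encoded by Thrsp and Mid1ip1, the second of which is known to promote polymerization of acetyl-CoA carboxylase, had log2 fold changes of -0.47 (limma adjusted p = 0.246) and -0.29 (limma adjusted p = 0.0822). The transcripts of the regulators do not report the activity of their proteins, and processing of the SREBP proteins was not measured.

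**Figure D4:**
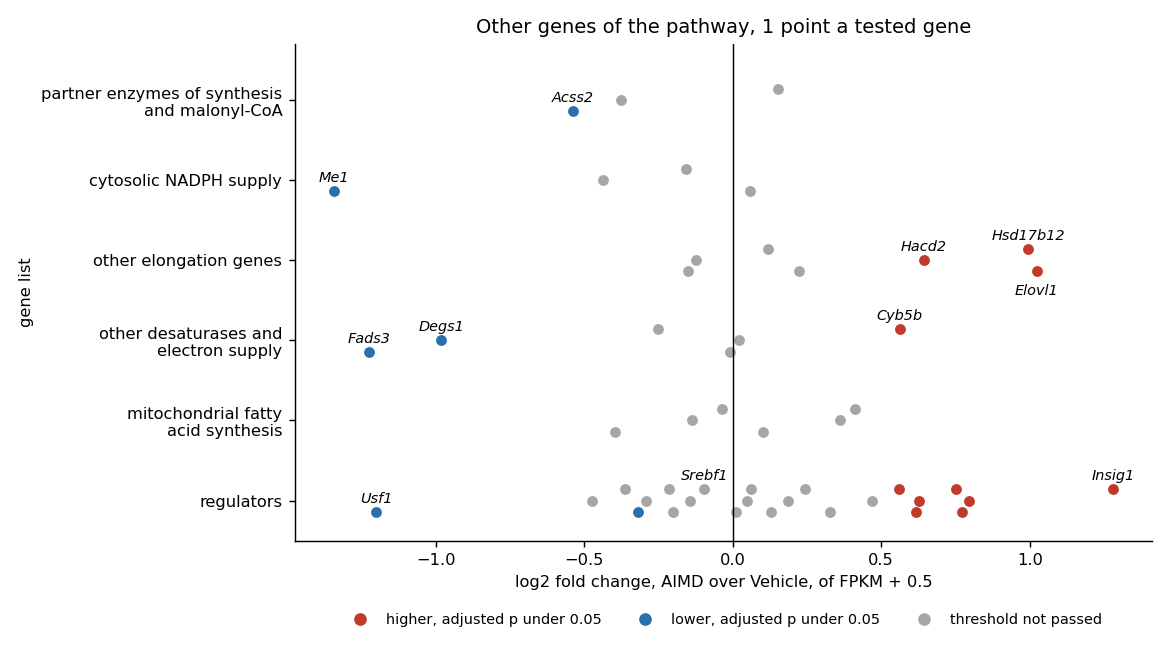
Log2 fold change, AIMD over vehicle (x axis, of FPKM + 0.5), of the 50 tested genes in the 6 lists (y axis), 1 point a gene, spread vertically for legibility. Me1, Fads3, Usf1 and Degs1 lie at the left, from -1.34 to -0.98, and Insig1, Elovl1 and Hsd17b12 at the right, from 1.00 to 1.28, while Srebf1 lies at -0.10.

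Lipogenic genes are known outputs of the circadian clock, and the time of death of each mouse was not used here. A score of 10 clock genes (the mean log2 level of Arntl, Npas2, Clock, Cry1 and Nfil3 less that of Nr1d1, Nr1d2, Dbp, Tef and Per3) placed the mice in a high cluster of AIMD replicates 1 to 3 with vehicle replicates 1 to 4, and a low cluster of AIMD replicates 4 to 7 with vehicle replicates 5 to 8. The scores ran from 1.52 to 2.09 in the high cluster and from -1.34 to -0.35 in the low cluster. Within the high cluster Scd1 was at 11.7 to 21.9 FPKM in AIMD mice and 49.98 to 94.0 FPKM with vehicle, a log2 fold change of -2.11 (limma adjusted p = 0.000726). Within the low cluster it was at 18.1 to 25.6 and 63.4 to 86.7 FPKM, a log2 fold change of -1.84 (limma adjusted p = 0.000427).

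Of the other genes, Fads2 had log2 fold changes of 0.85 and 0.89 in the high and low clusters, Elovl5 0.43 and 0.44, and Fasn -0.35 and -0.33, none of them past the threshold in a single cluster. Scd2 passed in the low cluster (0.49, limma adjusted p = 0.0410) and not in the high cluster (0.31, limma adjusted p = 0.440). Acaca was at -0.26 in the high and 0.13 in the low cluster, and Acacb at -0.52 and -0.05. The difference between the clusters in the treatment effect was tested as an interaction, and 0 of the 10 genes passed in limma, with 0 at an unadjusted p under 0.05 (lowest unadjusted p = 0.136, Acaca; 0% of all genes tested passed). A cluster held 3 or 4 mice of each group, which limits the precision of its values.

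**Figure D5:**
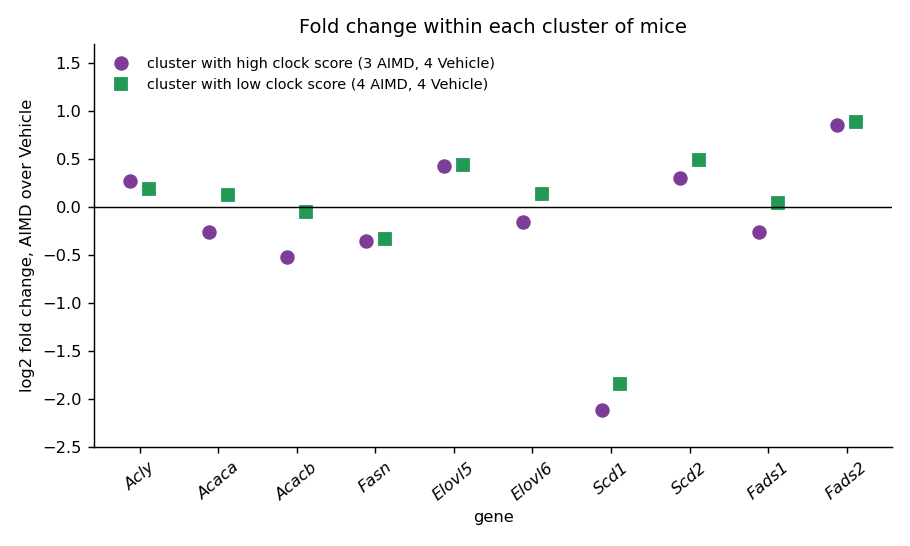
Log2 fold change of each gene (y axis, AIMD over vehicle, of FPKM + 0.5) in the cluster of mice with a high clock-gene score (circles) and in that with a low score (squares). Scd1 lies at -2.11 and -1.84, and Fads2 at 0.85 and 0.89.

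Scd1 is also abundant in fat, so markers of other cell types were set beside it. Of 8 adipocyte genes 5 were tested and 1 passed, Adipoq, which was lower in AIMD mice (log2 fold change -1.44, limma adjusted p = 0.0215). The summed FPKM of the 8 genes lay between 16.03 and 27.4 in AIMD mice and between 17.0 and 64.0 in vehicle-treated mice. Cidec made up much of this sum, with medians of 14.4 FPKM under AIMD and 12.8 FPKM with vehicle, against median sums of 21.7 and 29.15 FPKM. Its log2 fold change was 0.02 (limma adjusted p = 0.941), so the sum says little about Adipoq. Plin1 was at 0 in 7 of 7 AIMD and 5 of 8 vehicle-treated mice and did not exceed 0.118 FPKM, and Lep did not exceed 0.270 FPKM. Other genes of the list were measured in every group at higher levels, with Cidec up to 32.4, Fabp4 up to 15.4 and Cfd up to 9.31 FPKM. Cfd had a log2 fold change of -1.45 that did not pass (limma adjusted p = 0.0990). AIMD replicates 3 to 7 had Adipoq at 0.109 FPKM or less, with Scd1 from 16.1 to 25.6 FPKM. Vehicle replicates 4, 5 and 8 had Adipoq from 2.78 to 5.15 FPKM, with Scd1 at 72.9, 86.7 and 81.7 FPKM. Vehicle replicate 3, the highest in Scd1 at 94.0 FPKM, had Adipoq at 1.06 FPKM. Vehicle replicates 6 and 7 had Adipoq at 0.154 and 0.438 FPKM with Scd1 at 63.4 and 86.7 FPKM, while AIMD replicates 1 and 2 had more Adipoq, 1.44 and 1.61 FPKM, with Scd1 at 21.9 and 11.7 FPKM. With the adipocyte markers as a covariate, chosen after seeing the data, the log2 fold change of Scd1 was -2.03 (limma adjusted p = 7.11e-06). That score averages all 8 genes, Cidec, Plin1 and Lep among them, and so does not follow Adipoq alone. The part of fat in the change of Scd1 was not tested.

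Markers of the other compartments of the wall were set beside the members too. All 6 smooth muscle genes had lower means in AIMD mice, and 1 passed (Tagln, log2 fold change -1.17, limma adjusted p = 0.00454). The others had log2 fold changes from -0.96 (Des) to -0.58 (Cnn1) and did not pass. The summed FPKM of the 6 ran from 211 to 804 (median 631) in AIMD mice and from 512 to 2988 (median 1043) in vehicle-treated mice. Of the genes of enteric glia and Schwann cells, S100b was lower in AIMD mice by log2 fold change (-1.53, limma adjusted p = 0.000676), as was Gfap (-0.92, limma adjusted p = 0.00553). Among 8 epithelial genes Krt8 and Vil1 were higher and Krt18 lower. The summed levels of the smooth muscle and epithelial genes overlapped between the groups, and 36.0% of all genes tested passed, 16.6% as lower. Fibroblast genes (1 of 5 higher), immune genes (1 higher and 1 lower of 7) and liver genes (0 of 2 tested passed in limma) completed the lists. With the smooth muscle, glial or epithelial markers as a covariate the log2 fold change of Scd1 was -2.08, -1.995 and -1.77. The part of these compartments in the changes of Scd1, Fasn, Elovl5, Scd2 and Fads2 was not tested.

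Across the 15 mice, the genes whose log2 values, centred on the vehicle mean, lay closest to those of Scd1 were Tubb2a (mean absolute difference 0.25), Hdac9 (0.27), Cyp2c55 (0.27), Cyp2d22 (0.30) and Mat2a (0.31). They encode a beta-tubulin, a histone deacetylase, a pair of cytochromes P450 and methionine adenosyltransferase. This measure picks genes whose fold change is near that of Scd1. The other members had log2 fold changes from -0.35 (Fasn) to 0.85 (Fads2), so none of them could be among these genes. The fold changes given next follow from the same choice. The P450 gene Cyp2c55 stood at 2158 FPKM in AIMD mice and 6757 FPKM in vehicle-treated mice (log2 fold change -1.62, limma adjusted p = 3.06e-06), while Hdac9 stood at 0.703 and 3.13 FPKM (log2 fold change -1.599, limma adjusted p = 6.36e-07).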

How the data were processed

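Cecal RNA of 7 AIMD and 8 vehicle-treated mice was analysed, grouped by the sample labels. Per the study's methods, poly-A selected stranded libraries were read with 50-base single reads, mapped to GRCm38 with STAR and counted with featureCounts on GENCODE genes, and the authors tested counts with DESeq2, in a design that also held the time of sacrifice. The deposited values are FPKM by gene symbol, 1 column a mouse. How counts became FPKM, whether counting used strand, and the time of sacrifice of each mouse are not given in the sources used here.

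Of 45808 rows, 4 with a repeated symbol were left out. Whole reads were recovered from the FPKM of all 24279 genes above 0 (16690 at the GENCODE M21 exon length, 7589 at another length, within 0.05 reads), which gave the depths. Each mouse's FPKM were scaled by a median-of-ratios factor, which was 1.01 in each mouse. The deposited values thus appear to hold such scaling already, and the alternative without further size factors could hardly differ. Genes with at least 0.5 FPKM in at least 7 mice were tested with limma 3.58.1 (R 4.3.3, lmFit and eBayes with a trend) on log2(FPKM + 0.5), two-sided, with Benjamini-Hochberg adjustment over 11971 genes. Pairs of genes were compared as log2 ratios per mouse by exact permutation over 6435 splits, and their 95% intervals invert that test. Other steps used Python 3.11.15 and scipy 1.17.1. The fit was also run on simulated data with the same dispersion in every gene and the same size of change in every changed gene, unlike the real data. No result given here rests on that run.

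The members, lists and tests were chosen with earlier results of these data known. Genes named are the 10 members, at most 4 passing genes a list in order of fold change, regulators and partners fixed by name, the marker and clock genes, and the 5 genes most like Scd1. Scap was named in addition after seeing the data. Promoter sequences are RefSeq's on GRCm38.p6, and gene positions those of GENCODE M21. The alternatives were other scalings, pseudocounts and filters, a clock-gene score or cluster, a replicate block, an exact rank-sum test, limma voom on recovered reads and each mouse left out. Marker scores as covariates were added after seeing the data. Some marker results are not reported here. Mice shared cages, which are not in the labels.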

Additional observations from a re-analysis of the deposited data

Results flagged for a closer look

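In 3 of 30 checks of a gene or a log2 ratio within a group, 1 mouse stood apart from the others by Dixon's gap test, which flags about 1 in 20 groups by chance. Acly was at 11.8 FPKM in vehicle replicate 7, with the other vehicle-treated mice from 13.7 to 14.9 FPKM. Scd2 was at 34.8 FPKM in vehicle replicate 1, with the others from 56.0 to 65.6 FPKM, while Scd1 in the same mouse was at 74.05 FPKM, within its group. The log2 ratio of Fads1 to Fads2 was 2.49 in AIMD replicate 4, with the other AIMD mice from 0.70 to 1.41, since Fads2 was at 1.02 FPKM there on 13 reads. Leaving out the mouse concerned changed neither the call of Acly or Scd2 nor that of the difference between Fads1 and Fads2.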

How the results depend on the processing

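The fall of Scd1 and the differences between Scd1 and Scd2, Elovl5 and Elovl6, Fads1 and Fads2, and Fasn and Scd1 kept their direction and their side of the threshold under every alternative run for them. Of the 10 genes 4 passed, against 6 (Acly and Scd2 beside the 4) with a covariate for the clock-gene score or the clock-gene cluster as a factor, the settings nearest to the time of sacrifice in the authors' design, 2 within the low and 1 within the high clock-gene cluster, where fewer mice were compared, and from 2 to 5 with 1 mouse left out. The difference between Acaca and Acacb (0.22) was 0.19 and not past the threshold with a replicate block, and lay between 0.18 and 0.26 with 1 mouse left out. The difference between clusters stayed at 0 genes, and the count over the 6 lists was 17, from 16 to 20 with 1 mouse left out.

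Directions turned only for genes that did not pass. Acaca turned to 0.13 in the low cluster and to 0.0083 with smooth muscle markers as a covariate, and lay between -0.13 and 0.0016 with 1 mouse left out. Elovl6 turned to 0.13 in the low cluster, 0.029 with the replicate block, and 0.019, 0.016 and 0.12 with adipocyte, smooth muscle and glial markers, and lay between -0.061 and 0.055 with 1 mouse left out. Fads1 turned to 0.042 in the low cluster and to 0.060, 0.082 and 0.11 with adipocyte, smooth muscle and glial markers. The cause was not tested. Acaca and Acacb were not tested with a minimum of 1 FPKM.

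Replicate numbers of the groups did not pair the mice, since deviations from the group means correlated from -0.35 to 0.43 within a number and only number 7 correlated best with its own. With the replicate block, in which vehicle replicate 8 has no partner, 3 of the 10 genes passed, and Fasn did not (log2 fold change -0.37, limma adjusted p = 0.0515). Few reads on Acaca, Acacb and Fads2 limit what could be resolved there.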
